A study of Mus musculus with 4 samples.

Results

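The acid-base genes of kidney intercalated cells were examined in kidneys of pristane-injected mice, to ask whether their RNA levels differed between wild-type (WT) animals and animals without Zbp1, a sensor of Z-form nucleic acids. The 10 genes, taken by name, were Atp6v1b1, Atp6v0a4, Atp6v0d2, Atp6v1g3, Slc4a1, Slc4a9, Slc26a4, Foxi1, Rhcg and Aqp6, among 54532 genes in the count tables, and all 10 were found and passed the filter on low counts. RNA-Seq of kidney was available for 2 WT and 2 Zbp1-KO libraries, and the titles do not state whether whole organs or pieces were used. WT and Zbp1-KO (Zbp1-/-) mice, described by the study as female and of C57BL/6J background, received 500 µL pristane intraperitoneally, an oil used to model lupus, when 8 weeks old, and their kidneys were taken after a further 8 months. The knockout was made by CRISPR-Cas9 deletion of Zbp1 exons 2 to 8 and is not limited to a cell type. Every library came from a pristane-injected animal, so the comparison is of genotype within the disease model. The titles number the kidneys without stating how many animals each held, so p-values measure the spread between these libraries.

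Intercalated cells lie among the principal cells of the connecting tubule and collecting duct and adjust how much acid or base leaves in the urine. Type A cells secrete acid through a vacuolar proton pump (V-ATPase) in the apical membrane and return bicarbonate to the blood through the exchanger encoded by Slc4a1. Type B cells secrete bicarbonate through pendrin, encoded by Slc26a4, and the forkhead factor Foxi1 is required for both types to form.

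The libraries held 9878776 to 12921925 counts, of which mitochondrially encoded genes took 49.5% to 61.5%, leaving 4003417 to 5782924 counts for all other genes. Levels are given as CPM, the counts of a gene relative to its library's total after scaling by the TMM method. Zbp1 had 94 and 125 counts in WT and 18 and 0 counts in Zbp1-KO, in the order of the labels. The members were well covered, from 133 counts for Foxi1 in WT 2 and Zbp1-KO 1 to 2233 counts for Rhcg in WT 1. Across genes, which are no independent replicates, log2 CPM had a Pearson correlation of 0.938 between the WT libraries and 0.900 between the Zbp1-KO libraries, and Zbp1-KO 1 stood apart in the nephron segment genes described further on.

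None of the 10 genes was called at an adjusted p under 0.05 in the edgeR quasi-likelihood test (adjusted p = 0.999 for each), and 0 had an unadjusted p under 0.05. Across all 14908 genes tested, 0.0134% were called higher and 0% lower in Zbp1-KO, while 1.91% were higher and 1.97% lower at the unadjusted threshold. The exact test of edgeR, DESeq2 and limma-voom also called 0 of the 10, although limma-voom gave 1 of them, Slc4a9, an unadjusted p of 0.0276. Zbp1, the deleted gene, was itself not called, with a log2 fold change of −3.64. Its unadjusted p was 0.00153 and its adjusted p 0.999 in the edgeR quasi-likelihood test, so a gene not called may still differ. The median log2 fold change of Zbp1-KO over WT was 0.04 for the members and −0.0061 for all genes tested, with 7 members above 0 and 3 below, and single values ran from −0.44 to 0.30. Both Zbp1-KO libraries lay above both WT libraries for 2 members (Atp6v1b1 and Atp6v0d2) and below for 1 (Atp6v1g3), while of all tested genes 16% lay apart above and 16.3% below. Replicates of the members differed about as much as those of all genes tested. On the log2 scale, the median difference between the WT replicates was 0.32 for the members and 0.32 for all genes tested. Between the Zbp1-KO replicates it was 0.42 and 0.39. The median size of the log2 fold change was 0.14 for the members and 0.24 for all genes tested. The median of mean levels was 33.8 CPM for the members and 11.9 CPM for all genes tested. These sizes were not compared among genes of like level.

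**Figure D1:**
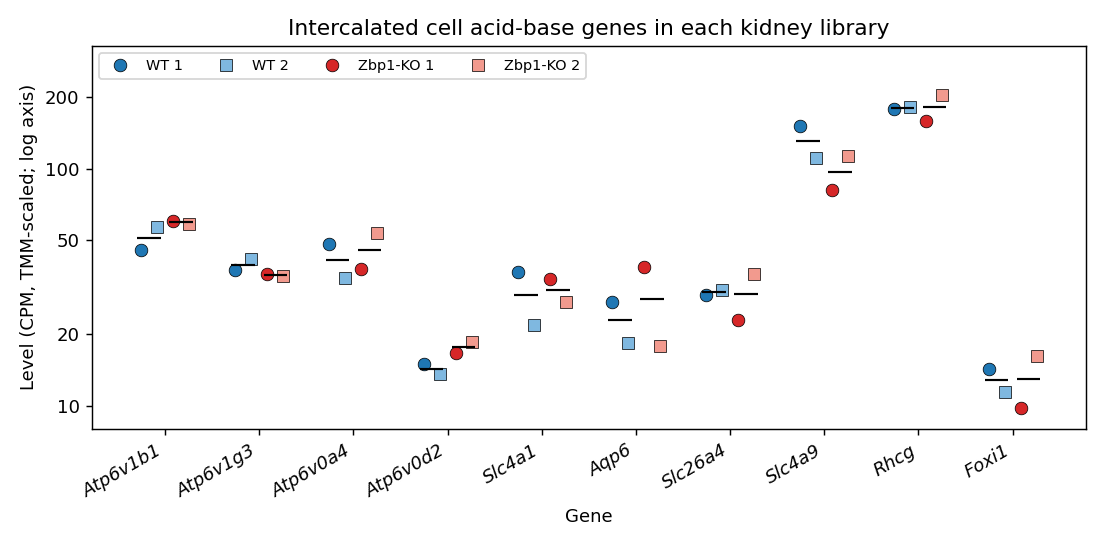
Level of each intercalated cell acid-base gene (CPM, log axis) in the 4 libraries, with 1 point per library and a short line at the mean of each genotype (n = 2). Rhcg was highest in every library, and the genotypes overlapped except in Atp6v1b1, Atp6v0d2 and Atp6v1g3.

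Foxi1, the transcription factor of the cell type, and the pump genes are described first. To show the regulatory context, the 250 bases before the start of each gene in the RefSeq promoter windows (GRCm38.p6), which held 7 of the 10 members, were searched on both strands for 4 forkhead words of 7 letters, none of which contains another. Among the members, 2 pump genes held a word, and these stretches are printed on the gene's strand, 5′ to 3′, with the match in capitals.
Atp6v1b1: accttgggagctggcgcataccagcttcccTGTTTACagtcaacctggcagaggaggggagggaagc
Atp6v1g3: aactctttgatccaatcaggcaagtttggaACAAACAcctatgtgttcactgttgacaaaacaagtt
The Atp6v1b1 stretch lies at chr6:83742889-83742955 (plus strand), and its word starts 98 bases before the RefSeq start of the gene at 83743017, which lies downstream of the GENCODE M21 start of that gene. The Atp6v1g3 stretch lies at chr1:138273641-138273707 (plus strand) and carries TGTTTGT on the opposite strand, 67 bases before the RefSeq start. Of all 32851 windows, the word TGTTTAC was present in 3.17%, the word TGTTTGC in 4.30%, the word TGTTTAT in 4.16% and the word TGTTTGT in 5.84%, and any of the 4 was present in 15.7%. A match describes letters and not binding.

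Foxi1 (ENSMUSG00000047861, chromosome 11, 34204338 to 34208089, minus strand) measured 14.3 and 11.4 CPM in WT, against 9.81 and 16.2 CPM in Zbp1-KO. The Zbp1-KO libraries were the lowest and the highest of the 4, so the WT values lay between them. The fold of Zbp1-KO over WT was 1.01 with a 95% interval from 0.604 to 1.67 in the edgeR fit. Foxi1 had the lowest level of the 10 genes per kilobase of exon, 5.48 CPM per kb on average.

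The V-ATPase consists of a cytosolic part that splits ATP and a membrane part that carries the protons, and intercalated cells use their own isoforms of several subunits. Atp6v1b1 (ENSMUSG00000006269, chromosome 6, 83742990 to 83758855, plus strand) encodes a B subunit of the cytosolic part, and its loss is known to cause distal renal tubular acidosis. It measured 45.3 and 56.5 CPM in WT, against 60.3 and 58.6 CPM in Zbp1-KO. The groups did not overlap, but WT 2 was nearly as high as the Zbp1-KO libraries. The log2 fold change was 0.22 ± 0.20 (SE, n = 2 each) with an unadjusted p of 0.282 in edgeR.

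Atp6v1g3 (ENSMUSG00000026394, chromosome 1, 138273738 to 138289462, plus strand), a G subunit of the cytosolic part, was the least variable member. It measured 37.3 and 41.5 CPM in WT, against 35.9 and 35.2 CPM in Zbp1-KO, and its log2 fold change was −0.15 ± 0.20 (SE, n = 2 each). Both Zbp1-KO values lay below both WT values, by less than the distance between the WT libraries.

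In the membrane part, Atp6v0a4 (ENSMUSG00000038600, chromosome 6, 38048483 to 38124586, minus strand) encodes an a subunit whose loss also causes distal renal tubular acidosis. It measured 48.2 and 34.6 CPM in WT, against 37.6 and 53.6 CPM in Zbp1-KO. The highest and the lowest of these values belonged to different genotypes, with the remaining libraries between them. Its exons share 259 bases with D630045J12Rik on the same strand and 62 bases with Tmem213 on the other strand, and its counts are uncertain to that extent. Atp6v0d2 (ENSMUSG00000028238, chromosome 4, 19876841 to 19922605, minus strand), a d subunit also made by osteoclasts and macrophages, measured 14.96 and 13.6 CPM in WT, against 16.7 and 18.5 CPM in Zbp1-KO. The groups did not overlap, and the log2 fold change was 0.30 ± 0.27 (SE, n = 2 each) with an unadjusted p of 0.287 in edgeR. The osteoclast and macrophage genes Acp5 and Ctsk measured 11.3, 12.6, 12.2 and 15.4 CPM and 10.9, 9.75, 8.92 and 13.8 CPM in WT 1, WT 2, Zbp1-KO 1 and Zbp1-KO 2. Of the macrophage markers, Csf1r and Lyz2 had the highest mean CPM. They measured 148, 102, 128 and 131 CPM and 109, 64.1, 97.9 and 103 CPM in the same order, both highest in WT 1. All 6 macrophage markers had log2 fold changes above 0, between 0.05 and 0.54, and 0 were called. Their part in the Atp6v0d2 values was not tested.

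The isoforms were set against the other isoforms of the same subunit by the share of each subunit's level per kb of exon. Atp6v1b1 took 52.8% to 57.1% of the B subunit level over the 4 libraries, beside Atp6v1b2. Atp6v0a4 took 18.6% to 28.7% of the a subunit level, with the remainder from Atp6v0a1, Atp6v0a2 and Tcirg1. Its share was lowest in Zbp1-KO 1 and highest in WT 1. Atp6v1g3 took 20.6% to 26.8% beside Atp6v1g1. The share of Atp6v0d2 beside Atp6v0d1 was 14.6% and 15.7% in WT and 18.1% and 23.8% in Zbp1-KO. This was the only one of the 5 isoform shares examined in which both Zbp1-KO libraries lay above both WT libraries. An exact two-sided permutation test of 2 against 2 cannot give a p below 0.333. The share also depends on Atp6v0d1, which measured 32.2 and 26.8 CPM per kb in WT, against 27.9 and 21.9 in Zbp1-KO. Atp6v1c2, a C subunit isoform of intercalated cells outside the 10 genes, took 73.9% to 78.4% beside Atp6v1c1, and its groups overlapped.

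**Figure D2:**
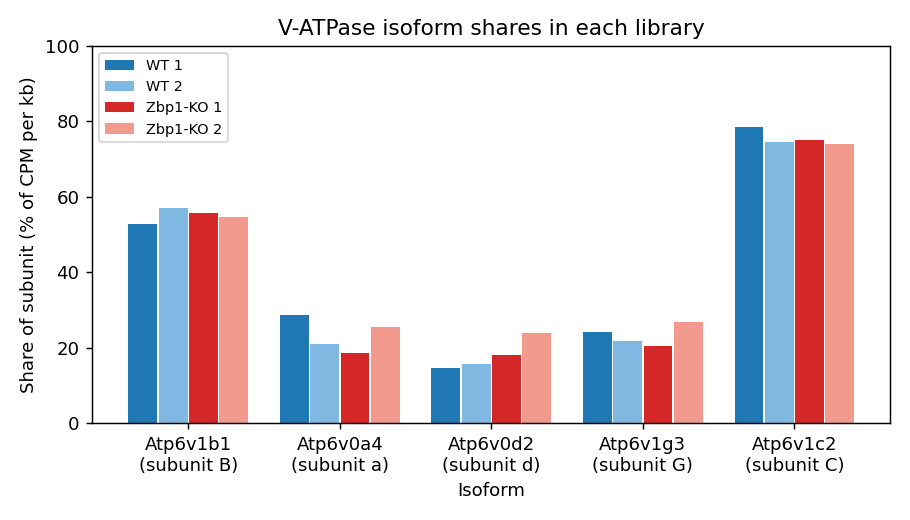
Share (%) of each V-ATPase subunit's summed level (CPM per kb of exon) that the named isoform took, with 1 bar per library. Atp6v1b1 took between 52.8% and 57.1% in all 4 libraries, and the share of Atp6v0d2 was 14.6% and 15.7% in WT against 18.1% and 23.8% in Zbp1-KO.

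Of the 19 other V-ATPase subunits and accessory proteins, 0 were called in edgeR, while the unadjusted threshold of 0.05 was passed by 1 higher and 0 lower. Their median log2 fold change was 0.03, with 11 above 0 and 8 below. The gene past the threshold was Tcirg1, an a subunit isoform best known from osteoclasts and immune cells, with 57.4 and 65.8 CPM in WT, against 89.1 and 88.2 CPM in Zbp1-KO. Its log2 fold change was 0.53 ± 0.19 (SE, n = 2 each), and the edgeR quasi-likelihood test gave an unadjusted p of 0.0152 and, after adjustment, 0.999.

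Of the 10 genes, Slc4a9 had the log2 fold change farthest from 0. It encodes a basolateral anion exchanger of type B cells (ENSMUSG00000024485) and measured 152 and 111 CPM in WT, against 81.2 and 113 CPM in Zbp1-KO. WT 1 was the highest and Zbp1-KO 1 the lowest library, while WT 2 and Zbp1-KO 2 were nearly equal. The log2 fold change was −0.44 ± 0.22 (SE, n = 2 each), a fold of 0.737 with a 95% interval from 0.527 to 1.03, and an unadjusted p of 0.0716 in edgeR. With 1 library left out, the log2 fold change ran from −0.70 to −0.21, the latter without WT 1.

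Slc26a4 (ENSMUSG00000020651, chromosome 12, 31519827 to 31559969, minus strand), the apical chloride-bicarbonate exchanger of type B cells, did not share that pattern of means. It measured 29.4 and 30.8 CPM in WT, against 23.0 and 36.1 CPM in Zbp1-KO. Both WT values lay between the Zbp1-KO values, and the fold was 0.978 with a 95% interval from 0.667 to 1.43. Like Slc4a9, however, Slc26a4 had its lowest value in Zbp1-KO 1, as did Foxi1 and Rhcg.

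Slc4a1 and Aqp6, genes of type A cells, varied between libraries in another order. Slc4a1 (ENSMUSG00000006574, chromosome 11, 102348824 to 102366203, minus strand), the basolateral chloride-bicarbonate exchanger, measured 36.5 and 22.0 CPM in WT, against 34.4 and 27.5 CPM in Zbp1-KO. Both Zbp1-KO values lay between the WT values, and the log2 fold change was 0.08 ± 0.27 (SE, n = 2 each). Aqp6 (ENSMUSG00000043144, chromosome 15, 99601400 to 99605477, plus strand), a water channel relative of intracellular vesicles that conducts anions, measured 27.5 and 18.4 CPM in WT, against 38.4 and 17.9 CPM in Zbp1-KO. Its Zbp1-KO replicates were 2.15-fold apart, the widest gap between replicates among the 10 genes. The log2 fold change of Aqp6 was 0.30 with all libraries, −0.37 without Zbp1-KO 1 and 0.73 without Zbp1-KO 2.

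Slc4a1 is also the main anion exchanger of red blood cells, and blood RNA was present in these kidneys. Hbb-bs, a haemoglobin gene, measured 950 and 270.2 CPM in WT, against 310.1 and 761 CPM in Zbp1-KO, a 3.52-fold range over the libraries, while that of Slc4a1 was 1.66-fold. Per kb of exon, the ratio of Alas2, the red cell enzyme of haem synthesis, to Hbb-bs stayed between 0.0168 and 0.0206. The ratio of Slc4a1 to Hbb-bs ran from 0.00567 to 0.0174, so that Slc4a1 did not follow the red cell genes in a fixed proportion. Slc4a1 was nearly as high in Zbp1-KO 1, where Hbb-bs was low, as in WT 1, where Hbb-bs was highest. All 6 red blood cell markers had log2 fold changes below 0, with a median of −0.19, and 0 were called.

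Rhcg (ENSMUSG00000030549, chromosome 7, 79593363 to 79617657, minus strand), an ammonia channel made by intercalated and principal cells, measured 180 and 183 CPM in WT, against 159 and 204 CPM in Zbp1-KO. The WT values lay between the Zbp1-KO values. The fold was 1.00 with a 95% interval from 0.755 to 1.33, the narrowest of the 10 genes on the log2 scale.

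**Figure D3:**
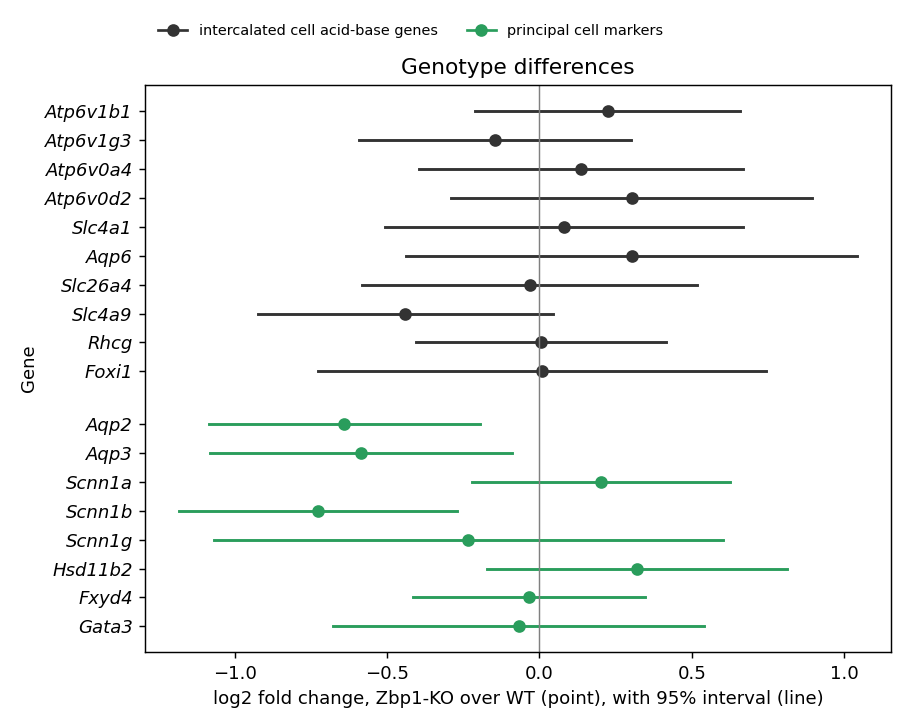
Log2 fold change of Zbp1-KO over WT (point) with its 95% interval (line) from the edgeR fit for the 10 intercalated cell acid-base genes and the 8 principal cell markers tested (n = 2 libraries per genotype). The intervals of all 10 acid-base genes include 0, and those of Aqp2, Aqp3 and Scnn1b lie below 0 before adjustment over all genes.

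Per kb of exon, Rhcg stood highest, with 71.5 to 91.5 CPM per kb over the libraries and a mean of 81.3. Atp6v1g3 (mean 19.9), Slc4a9 (17.9), Atp6v1b1 (12.6), Aqp6 (10.5), Slc26a4 (9.59), Atp6v0a4 (8.75), Slc4a1 (6.15), Atp6v0d2 (5.87) and Foxi1 (5.48) followed on the same scale. From Atp6v1g3 downwards, the library ranges of each pair of neighbours in this order overlapped, so that their order is not fixed. In bulk kidney RNA, fewer intercalated cells and less RNA per cell cannot be told apart.

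The subtypes were then compared within libraries. Summed per kb, the genes of both types (Foxi1, Atp6v1b1, Atp6v0a4 and Atp6v1g3) gave 45.9 and 46.7 CPM per kb in WT and 44.5 and 49.7 in Zbp1-KO. The genes assigned to type A (Slc4a1, Aqp6 and Atp6v0d2, the last also made by macrophages) gave 24.3 and 17.1 in WT and 29.04 and 19.8 in Zbp1-KO. The type B genes (Slc26a4 and Slc4a9) gave 33.2 and 27.3 in WT and 20.1 and 29.3 in Zbp1-KO. Zbp1-KO 1 was the only library of the 4 in which the type A sum (3 genes) exceeded the type B sum (2 genes). The other Zbp1-KO library resembled WT in this respect. Aqp6 alone gave 11.4 and 7.59 CPM per kb of the type A sum in WT and 15.9 and 7.38 in Zbp1-KO. The sums therefore depend on the genes chosen. The per-kb ratio of Slc26a4 to Slc4a1 differed more between replicates than between genotypes, with 1.27 and 2.20 in WT and 1.05 and 2.07 in Zbp1-KO.

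Most markers of the thick ascending limb and proximal tubule also had their highest or lowest value in Zbp1-KO 1. Of the 5 thick ascending limb markers, all 5 were highest in Zbp1-KO 1, among them the salt transporter gene Slc12a1 with 707 and 459.9 CPM in WT, against 763 and 495 CPM in Zbp1-KO. Its higher values fell in WT 1 and Zbp1-KO 1, the libraries with the higher Slc4a1 and Aqp6. Umod, which encodes uromodulin, measured 244 and 223 CPM in WT, against 383 and 205 CPM in Zbp1-KO. Of the 6 tested proximal tubule genes, 5 were lowest in Zbp1-KO 1 (all but Lrp2), where Slc4a9, Slc26a4 and Foxi1 were also lowest. The glucose transporter gene Slc5a2 measured 45.0 and 33.9 CPM in WT, against 8.48 and 44.0 CPM in Zbp1-KO, and the phosphate transporter gene Slc34a1 measured 923 and 1032 CPM in WT, against 529 and 995 CPM in Zbp1-KO (Slc5a2 and Slc34a1 were chosen after their values were seen). The summed level of all 7 proximal tubule markers was 987 CPM in Zbp1-KO 1 and 1396 to 1555 CPM in the other libraries, and that of the 5 thick ascending limb markers was 1306 CPM in Zbp1-KO 1 and 805 to 1102 CPM in the others. The part of these segments in the intercalated cell values was not tested.

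**Figure D4:**
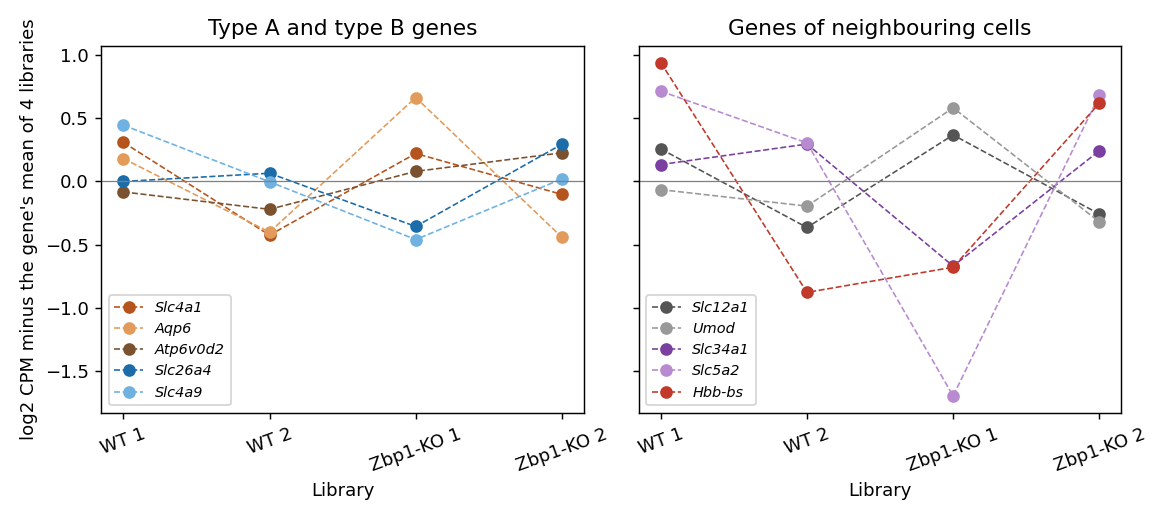
Log2 CPM of each gene minus its mean over the 4 libraries, for type A and type B intercalated cell genes (left) and for genes of the thick ascending limb (Slc12a1, Umod), the proximal tubule (Slc34a1, Slc5a2) and red blood cells (Hbb-bs) (right). In Zbp1-KO 1, Aqp6, Slc4a1, Slc12a1 and Umod lie above 0 and Slc4a9, Slc26a4, Slc34a1 and Slc5a2 below, and lines join points of the same gene only.

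Of 15 further intercalated cell genes, 0 were called in edgeR and 0 passed the unadjusted threshold, with 7 log2 fold changes above 0 and 8 below and a median of −0.053. Car2, the cytosolic carbonic anhydrase that supplies the pump and the exchangers, measured 195 and 180 CPM in WT, against 189 and 172 CPM in Zbp1-KO. Tfcp2l1, a transcription factor of intercalated cells, measured 137 and 109.9 CPM in WT, against 139.9 and 127 CPM in Zbp1-KO. Neither of these genes separated the genotypes. Of the 15, 2 lay apart above and 3 below, beside 16% and 16.3% of all tested genes.

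Of 8 genes for bicarbonate reclamation and ammonia production in the proximal tubule, 0 were called and 0 passed the unadjusted threshold in edgeR, with a median log2 fold change of −0.020. Pck1, an enzyme of gluconeogenesis that rises in acidosis, measured 242 and 235 CPM in WT, against 231 and 275 CPM in Zbp1-KO, and Glud1, which releases ammonia from glutamate, measured 143 and 136 CPM in WT, against 124 and 126 CPM in Zbp1-KO.

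Principal cells share the tubule wall with intercalated cells, and 0 of their 8 tested markers were called. At an unadjusted p under 0.05, 3 were lower in Zbp1-KO and 0 higher. The list median was −0.15, with 2 log2 fold changes above 0 and 6 below, so the markers did not all go the same way. The water channel gene Aqp2 measured 903 and 1061 CPM in WT, against 729.6 and 530.4 CPM in Zbp1-KO, with a log2 fold change of −0.64 ± 0.20 (SE, n = 2 each) that edgeR gave an adjusted p of 0.999. Aqp3 measured 71.4 and 74.4 CPM in WT, against 59.1 and 37.9 CPM in Zbp1-KO. Scnn1b, a subunit of the epithelial sodium channel, measured 44.2 and 41.3 CPM in WT, against 26.1 and 25.5 CPM in Zbp1-KO. The difference between the principal and intercalated cell lists was not tested.

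Among the remaining marker lists, the 6 distal convoluted and connecting tubule genes had a median log2 fold change of −0.13, the 5 podocyte genes 0.56, the 6 inner medulla genes −0.21, the 5 thick ascending limb genes 0.13 and the 6 tested proximal tubule genes −0.42. The 5 tested T cell genes had a median of 0.89 and the 5 adipocyte genes 2.13, and the summed T cell level was 7.36 to 9.49 CPM in WT and 14.97 to 17.8 CPM in Zbp1-KO. The summed adipocyte level was 65.9 and 90.1 CPM in WT, against 146 and 117 CPM in Zbp1-KO, and its part in the intercalated cell values was not tested. None of these list genes was called, and at an unadjusted p under 0.05 there were 5 adipocyte genes and 1 podocyte gene higher and 1 distal and 1 proximal tubule gene lower.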

How the data were processed

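Kidney RNA was isolated in TRIzol, selected for poly(A) and made into TruSeq libraries, which the authors sequenced from both ends. They trimmed reads with Trimmomatic, aligned them with HISAT2 (mm10, per the submitters' processing notes) and counted uniquely mapped pairs per gene with featureCounts. Versions, annotation release and the strand setting of the counting are not given in the sources used here. The deposited values are raw counts per Ensembl gene, 1 column per library, without normalization, and duplicate reads of a molecule were not separated.

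Symbols, positions and merged exon lengths came from GENCODE M21 (GRCm38), which matched 54495 of 54532 gene IDs. Counts were filtered with filterByExpr (minimum count 10, minimum total count 15), scaled by TMM and compared by the two-sided quasi-likelihood test of edgeR 4.0.16 under R 4.3.3, with genotype as the only term and Benjamini-Hochberg adjustment over 14908 genes. The standard error was the size of the log2 fold change over the root of its F statistic, and 95% intervals use the degrees of freedom of that test. Both values of each group are printed in place of a mean and SD. Mean log2 profiles used a prior count of 2.

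All 10 members are named. From the other lists, the rule named genes with an unadjusted p under 0.05 (at most 4), or else the 2 of highest mean CPM. Alas2, Acp5, Ctsk, Lrp2, Slc5a2 and Slc34a1 and the paired subunit isoforms fall outside it and were chosen after their values were seen, and not every gene the rule allows is printed. Members and lists were chosen with earlier results of these data known. Alternatives were RLE and upper quartile factors, 2 other filters, the exact test, DESeq2 1.42.0, limma-voom (limma 3.58.1), a replicate block, removal of mitochondrial genes and each library left out. The script was checked on simulated counts, where 24.0% of genes changed 2-fold and 71.7% of genes changed 4-fold were called. Promoter stretches are from RefSeq (GRCm38.p6). Of the 5 genes most alike in profile, 1 is not reported here.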

Additional observations from a re-analysis of the deposited data

How the results depend on the processing

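The number of intercalated cell acid-base genes called was 0 under all 13 alternatives, of which 4 left out a library. The unadjusted p was under 0.05 for Slc4a9 with all genes of at least 1 count (0.0273), with limma-voom (0.0276), without WT 2 (0.0218) and without Zbp1-KO 2 (0.00986), and for Aqp6 without Zbp1-KO 2 (0.0163). Across the alternatives the adjusted p of Slc4a9 lay between 0.357 and 1.00 and that of Aqp6 between 0.419 and 1.00. The median log2 fold change was 0.04 with all libraries, between 0.03 and 0.05 under the 9 alternatives with all libraries, and ran from −0.14 (without Zbp1-KO 2) to 0.18 (without Zbp1-KO 1) with 1 library left out. In these fits a group of 1 library was assumed to vary like the other group.

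Of 130 single-gene values under alternatives, 114 kept their direction and 16 did not, none of them called. Foxi1 (0.0075 with all libraries) was −0.0032 with all genes of at least 1 count, −0.087 with limma-voom and −0.022 with the replicate block. Rhcg (0.0051) was −0.0053, −0.014 and −0.0053 in the same settings. For these the cause was not tested. With 1 library left out, log2 fold changes ran from −0.40 to 0.32 for Foxi1, −0.19 to 0.17 for Rhcg, −0.15 to 0.39 for Atp6v0a4, −0.24 to 0.49 for Slc4a1, −0.40 to 0.25 for Slc26a4 and −0.37 to 0.73 for Aqp6. The titles give same-numbered libraries a shared number and no stated link. Their deviations had a correlation of 0.00399 across genes. This compares 1 replicate difference per genotype and cannot decide whether the libraries were paired. The replicate block gave a median of 0.05, 0 called members and 11 called genes among all tested, against 2 in the main fit. Called genes overall ran from 0 to 41 over the alternatives. With 2 libraries a group, the intervals of the members still allow changes of the size printed beside them.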

Other observations

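The mean profile of the 10 genes, as log2 CPM minus each gene's mean over the 4 libraries, was 0.09 and −0.12 in WT and −0.05 and 0.08 in Zbp1-KO. Among 8197 tested genes outside the list with a mean of at least 10 CPM, those most alike by root mean square difference included Nab1 (0.0066), Pde4c (0.0074), Atp5f1 (0.021) and Mtch2 (0.022). Within a distance of 0.1 lay 715 of these genes, so that many single genes lie near this mean profile. The mean is flatter than single members, whose range over the libraries ran from 1.18-fold (Atp6v1g3) to 2.15-fold (Aqp6).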
